A study of Mus musculus with 18 samples.

Results

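Transcript levels in USF-depleted M12-5B3 cells were compared with those in control cells 1 day after ionizing radiation, to ask which genes depended on USF depletion while the cells were recovering from DNA damage. M12-5B3 is a p53-deficient mouse B lymphoma line, which the sample labels describe as germinal center B lymphocytes. The USFKD 1d IR group held 3 arrays of cells stably transduced with lentiviral shRNAs against Usf1 and Usf2, and the sshRNA 1d IR group held 3 arrays of cells transduced with a scrambled shRNA. Both lines were selected as puromycin-resistant clones, received a single dose of 5 Gy and were lysed 1 day later. The labels speak of shRNAs to either Usf gene, while the study's methods describe both together in USFKD cells. The sources call the 3 samples of a group both cultures and clones, so p-values measure the spread between these 3 samples, which may be technical, and the effect of the shRNAs cannot be told apart from other differences between the selected lines. The remaining 12 of the 18 arrays held USFKD and sshRNA cells without irradiation (no IR) and 7 days after 5 Gy (7d IR), with 3 in each group. All 65956 transcript clusters of the Affymetrix Mouse Transcriptome 1.0 array entered the comparison, and a gene with several clusters was represented by its brightest one, which gave 30098 named genes.

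USF1 and USF2 are ubiquitous basic helix-loop-helix leucine zipper transcription factors that bind as homodimers or heterodimers to the E-box CACGTG. They share this site with the MYC-MAX network and with the MiT factors TFEB and TFE3, which drive lysosomal genes. In B cells the USF proteins are known for binding immunoglobulin gene elements, and USF1 is also known to bind a promoter of Ciita, the master regulator of MHC class II genes. A germinal center B cell divides rapidly, edits its antigen receptor genes and presents antigen to T cells, so it relies on both DNA repair and antigen presentation.

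The knockdown reagents define the comparison, so both Usf1 hairpins are shown as designed, with the 21-base target in capitals and the loop and antisense strand in lower case. Usf1 lies on chromosome 1.
USF1shR1: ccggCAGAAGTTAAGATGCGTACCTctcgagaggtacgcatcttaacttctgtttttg
USF1shR2: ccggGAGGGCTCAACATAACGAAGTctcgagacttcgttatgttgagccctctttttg

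Usf2 RNA was lower in the knockdown line and Usf1 RNA was not called different. The brightest Usf2 cluster, TC0700002782.mm.1 on chromosome 7, had log2 intensities of 6.99, 7.23 and 7.17 in USFKD 1d IR arrays, against 9.19, 9.0 and 9.06 in sshRNA 1d IR arrays. The groups were well apart, with a difference of -1.95 ± 0.158 on the log2 scale (SE, adjusted p = 1.76e-06 by limma), which is 3.87-fold lower in USFKD cells. A further Usf2 cluster, TC0700002784.mm.1, lay at 6.93, 6.97 and 7.09 in USFKD 1d IR arrays and at 8.23, 8.32 and 8.22 in sshRNA 1d IR arrays, a difference of -1.26 ± 0.109 (SE, adjusted p = 3.65e-06 by limma). Usf1 read 5.28, 5.08 and 5.11 in USFKD 1d IR arrays and 5.25, 5.28 and 5.25 in sshRNA 1d IR arrays. These Usf1 values overlapped, and the difference of -0.10 ± 0.0808 had an adjusted p of 0.712 in limma. Array medians of the negative control rows were close to them, at 5.28 to 5.47 (USFKD 1d IR) and 5.12 to 5.27 (sshRNA 1d IR). Whether this cluster can show a knockdown at such values was not tested. The study's Western blot found nuclear USF1 protein reduced in USFKD cells. Usf2's neighbours on either side, Hamp and Lsr, differed by -0.19 and 0.01 and were not called.

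The labelled cell type matched its markers. Of 8 measured B cell markers 7 lay above the dim limit, a log2 value of 4.66 set by 1717 olfactory and vomeronasal receptor genes. None of 8 T cell markers, 1 of 8 NK cell markers (Prf1), 2 of 12 myeloid markers (Adgre1 and Marco), 1 of 7 erythroid and megakaryocyte markers and 3 of 11 stromal and epithelial markers did so. Single markers of other cells differed all the same: Adgre1 was higher, and Prf1 and the T cell marker Cd2 were lower in USFKD 1d IR by 1.99 and 0.73 on the log2 scale. The array medians of the T cell list ran from 3.85 to 3.92 in USFKD 1d IR and from 3.94 to 3.96 in sshRNA 1d IR, and those of the myeloid list from 3.94 to 4.07 in USFKD 1d IR and from 3.88 to 4.11 in sshRNA 1d IR. In bulk RNA, fewer cells of a type and less RNA per cell cannot be told apart. Arrays of one group correlated at 0.9942 to 0.9966 over transcript clusters and arrays of different groups at 0.9908 to 0.9932. Negative control rows had array medians of 5.28 to 5.47 in USFKD 1d IR and 5.12 to 5.27 in sshRNA 1d IR, and 38 of 5222 of them were called (0.728%). The brighter positive control rows were called in 84 of 1324 cases (6.34%), against 5.45% of named genes and 10.3% of those above the dim limit.

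A gene was called when its adjusted p was under 0.05 and its fold over 1.5. By this rule USFKD 1d IR cells had 1058 clusters above and 1186 below sshRNA 1d IR cells, together 3.4% of all clusters. Among named genes 818 were higher (2.72%) and 821 lower (2.73%), close to equal numbers. The balance moved with scaling, to 901 higher and 1324 lower clusters with centring on bright clusters and to 915 higher and 1256 lower with repeated quantile normalization. Decreases reached further: 286 genes were lower by over 2-fold and 13 by over 8-fold, while 166 were higher by over 2-fold and 2 by over 8-fold. The 3 arrays of each line did not overlap in 817 of the 818 higher and in all 821 lower genes, whereas 13.5% of all genes had every USFKD 1d IR array higher and 14.2% every one lower. Protein coding genes supplied 628 of the higher and 681 of the lower calls. Leaving out each 1-day array in turn kept 1135 of the 1639 called genes every time (69.2%).

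**Figure D1:**
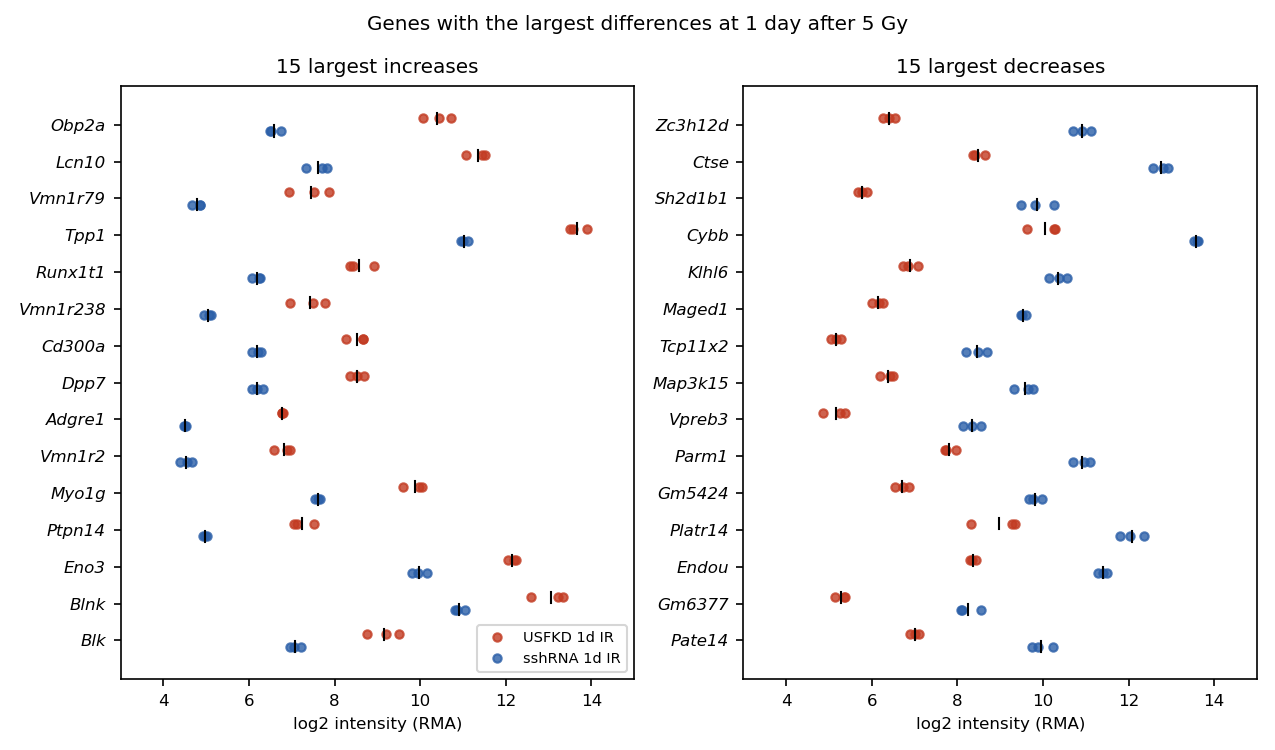
Log2 RMA intensity of the 15 genes with the largest increases (left) and the 15 with the largest decreases (right) in each of the 3 USFKD 1d IR arrays (red) and the 3 sshRNA 1d IR arrays (blue), with black ticks at the group means. The genes were chosen among called genes whose groups do not overlap. Zc3h12d on the right shows the widest gap, with means 4.50 apart.

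The largest decrease of a named gene was in Zc3h12d. This gene, which encodes a CCCH zinc finger protein of the Regnase family of RNA-degrading enzymes, read 6.27, 6.54 and 6.41 in USFKD 1d IR arrays, against 11.12, 10.70 and 10.90 in sshRNA 1d IR arrays. This was 22.6-fold lower in USFKD cells, a log2 difference of -4.50 ± 0.16 (SE, adjusted p = 5.71e-10 by limma). Its closest measured neighbour on chromosome 10 in each direction, Ppil4 and Mir5104, differed by -0.46 and 0.04 and was not called. Ctse encodes cathepsin E, an aspartic protease of endosomes, and had 8.41, 8.65 and 8.37 in USFKD 1d IR arrays and 12.57, 12.92 and 12.80 in sshRNA 1d IR arrays, 19.6-fold lower in USFKD cells. Sh2d1b1, which encodes the SLAM receptor adaptor EAT-2A, had 5.67, 5.89 and 5.78 in USFKD 1d IR arrays and 9.48, 10.26 and 9.82 in sshRNA 1d IR arrays, a 16.8-fold decrease. Its paralog next door on chromosome 1, Sh2d1b2, was also lower, by 3.01-fold. Cybb, the catalytic subunit of the phagocyte NADPH oxidase, had 9.62, 10.26 and 10.28 in USFKD 1d IR arrays and 13.61, 13.52 and 13.60 in sshRNA 1d IR arrays. Klhl6, a substrate adaptor of cullin 3 ubiquitin ligases needed in germinal center B cells, had 6.84, 6.74 and 7.07 in USFKD 1d IR arrays and 10.55, 10.15 and 10.38 in sshRNA 1d IR arrays. The highest USFKD array of each of these genes lay at least 3.07 below the lowest sshRNA array, except for Sh2d1b2, whose gap was 1.35.

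Further large decreases were measured for the MAGE family gene Maged1 (10.5-fold lower), the mitogen-activated kinase kinase kinase gene Map3k15 (9.24-fold), the pre-B cell receptor chaperone gene Vpreb3 (9.06-fold), Parm1 (8.65-fold) and the endoribonuclease gene Endou (8.22-fold). Vpreb3 read 5.25, 5.37 and 4.85 in USFKD 1d IR arrays and 8.14, 8.33 and 8.54 in sshRNA 1d IR arrays. The list of 15 was completed by Tcp11x2, Gm5424, Platr14, Gm6377 and Pate14, with log2 differences between -3.30 and -2.95. Clusters with no gene symbol changed on the same scale. TC1300000992.mm.1 was 23.5-fold lower in USFKD 1d IR, although its sshRNA 1d IR arrays spread over 11.16, 8.94 and 9.51, and TC0600001386.mm.1 was 8.11-fold higher.

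The largest increases were in a pair of lipocalin genes, small secreted carriers of hydrophobic ligands. Obp2a, an odorant-binding protein gene, read 10.07, 10.71 and 10.43 in USFKD 1d IR arrays, against 6.52, 6.49 and 6.76 in sshRNA 1d IR arrays, 14.1-fold higher in USFKD cells (3.81 ± 0.158 on the log2 scale, adjusted p = 1.77e-09 by limma). Lcn10 is its neighbour on chromosome 2 and read 11.07, 11.51 and 11.44 in USFKD 1d IR arrays and 7.70, 7.33 and 7.82 in sshRNA 1d IR arrays, 13.2-fold higher. The next genes outward, Lcn6 and Bmyc, differed by 0.09 and 0.02, and the 2 genes stood alone among the 7 genes examined in this stretch. The remaining 12 measured lipocalin genes were not called.

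Lysosomal peptidases and surface or signalling genes followed. Tpp1, a lysosomal tripeptidyl peptidase, had 13.50, 13.91 and 13.58 in USFKD 1d IR arrays and 10.96, 11.12 and 11.00 in sshRNA 1d IR arrays, 6.20-fold higher. Dpp7, a dipeptidyl peptidase of vesicles and lysosomes, had 8.36, 8.68 and 8.54 in USFKD 1d IR arrays and 6.18, 6.08 and 6.33 in sshRNA 1d IR arrays. Both peptidase genes were high in every USFKD array. Runx1t1, a transcriptional corepressor, was 5.19-fold higher, Cd300a, an inhibitory receptor of leukocytes, 5.05-fold, the hematopoietic myosin gene Myo1g 4.80-fold, the phosphatase gene Ptpn14 4.78-fold and the muscle enolase gene Eno3 4.55-fold. Adgre1, which encodes a surface antigen of mouse macrophages, had 6.78, 6.77 and 6.80 in USFKD 1d IR arrays and 4.50, 4.49 and 4.53 in sshRNA 1d IR arrays, while the other 11 myeloid markers were not called. Vmn1r79, Vmn1r238 and Vmn1r2 were 6.28-, 5.18- and 4.82-fold higher, but vomeronasal receptor genes are near-identical copies whose probes may not tell them apart, so these identities are uncertain.

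MHC class II genes were lower where they were called. Of 14 measured MHC class II genes 9 were lower and none higher, with a median log2 difference of -0.91, against 2.73% lower calls and a median of -0.02 over all genes. All 14 lay above the dim limit, where 5.09% of genes were called lower and the median was 0.02. H2-DMb2, a peptide-loading chaperone subunit, had 10.22, 10.29 and 10.08 in USFKD 1d IR arrays and 11.50, 11.96 and 11.74 in sshRNA 1d IR arrays, a difference of -1.54 ± 0.143 (SE, adjusted p = 7.66e-06 by limma). H2-Eb1, a beta chain of the antigen-presenting dimer, had 10.36, 10.30 and 10.37 in USFKD 1d IR arrays and 11.72, 11.77 and 11.58 in sshRNA 1d IR arrays. The chains H2-Aa (-1.11), H2-Ea (-1.07), H2-Ab1 (-0.96) and H2-Eb2 (-0.90) and the chaperone subunits H2-DMb1 (-1.09) and H2-DMa (-0.71) were lower as well. Ciita, their transactivator, had 8.79, 8.67 and 8.70 in USFKD 1d IR arrays and 9.83, 9.50 and 9.61 in sshRNA 1d IR arrays, 1.90-fold lower. The DNA-binding partners Rfx5, Rfxap and Rfxank had differences of -0.27, -0.03 and 0.21 and were not called, nor were the chaperone inhibitors H2-Oa and H2-Ob. The count of lower class II genes was 8 or 9 when any 1 array of the 1-day groups was left out. H2-Ea is a pseudogene in some mouse strains, and the H2 genes resemble each other, so signal may be shared between their probes.

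**Figure D2:**
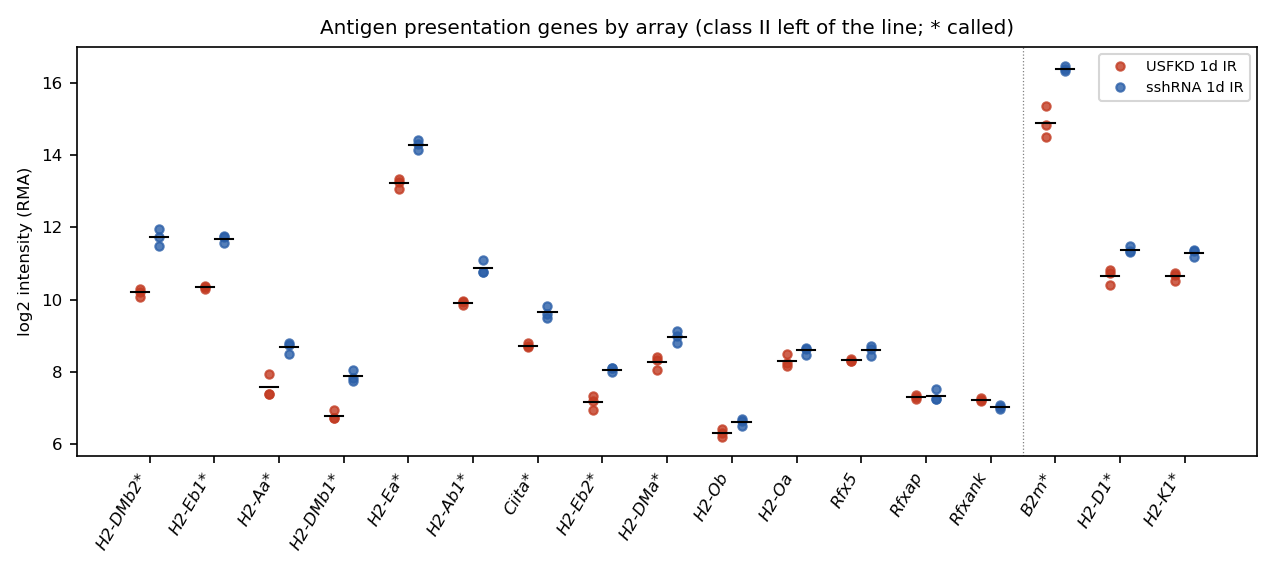
Log2 RMA intensity of the 14 measured MHC class II genes and of the 3 called MHC class I genes in the 3 USFKD 1d IR arrays (red) and the 3 sshRNA 1d IR arrays (blue), with bars at the group means and asterisks on called genes. The 9 called class II genes lie lower in all USFKD arrays, while Rfx5, Rfxap and Rfxank differ by 0.27 or less.

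Of 15 measured MHC class I genes 3 were lower and none higher. B2m, the light chain shared by class I molecules, had 14.51, 15.37 and 14.84 in USFKD 1d IR arrays and 16.38, 16.33 and 16.49 in sshRNA 1d IR arrays, 2.82-fold lower (-1.50 ± 0.236, adjusted p = 0.00101 by limma). Values above 16, as in these sshRNA arrays, exceed a scanner's usual log2 range, and whether their probes were saturated was not tested, so the fold is given as the deposited values have it. The same holds below for Rgs16, Pou2af1 and Pgk1 in sshRNA arrays and for Scd1 in USFKD arrays. The heavy chain genes H2-D1 and H2-K1 were 1.66-fold and 1.56-fold lower. Without USFKD 1d IR replicate 1 neither H2-D1 nor H2-K1 was called, at adjusted p of 0.0547 for H2-D1 and 0.0691 for H2-K1 in limma, and B2m alone was left. H2-K1 was also lost without sshRNA 1d IR replicate 1 (0.0617) or replicate 3 (0.062).

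Proximal B cell receptor genes moved in both directions, with 6 of 23 higher and 3 lower. These calls were 39.1% of the list, against 5.45% of all genes and 10.3% of genes above the dim limit. Blnk, the adaptor that links the receptor's kinases to phospholipase C, had 12.60, 13.34 and 13.22 in USFKD 1d IR arrays and 10.81, 11.06 and 10.86 in sshRNA 1d IR arrays, 4.42-fold higher. The Src family kinase gene Blk had 8.76, 9.52 and 9.20 in USFKD 1d IR arrays and 7.21, 6.96 and 7.04 in sshRNA 1d IR arrays. Themis2 and Bank1, which encode signalling adaptors, were 4.17-fold and 3.79-fold higher, and Grb2 and Rasgrp3 rose by smaller folds of 1.64 and 1.62. In the opposite direction Btk, the kinase activated beside Blnk, had 12.31, 12.12 and 12.22 in USFKD 1d IR arrays and 13.49, 13.45 and 13.33 in sshRNA 1d IR arrays, 2.31-fold lower. The receptor signalling chain gene Cd79a was 2.28-fold lower and the kinase gene Fyn 2.11-fold lower, while Cd79b, the partner chain, differed by -0.11 and was not called. Inhibitory receptors and phosphatases divided in the same way, with 3 of 18 higher and 3 lower, together 33.3% of that list. Fcgr2b, the inhibitory Fc receptor of B cells, was 2.54-fold higher and the phosphatase gene Ptpn22 1.94-fold higher, next to Cd300a above. Btla had 11.40, 11.46 and 11.37 in USFKD 1d IR arrays and 13.10, 13.32 and 13.11 in sshRNA 1d IR arrays, and the inhibitory adaptor and receptor genes Dok3 and Lair1 were 1.98-fold and 1.81-fold lower.

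Called germinal center genes made up 39.1% of their list, against 5.45% of all genes and 10.3% of genes above the dim limit. Of the 23 measured 9 were lower and none higher, with a median difference of -0.24. Beside Zc3h12d and Klhl6 these were Rgs13, Rgs16, Cxcr4, Rgs1, Mybl1, Gcsam and Nuggc. Rgs13, a GTPase activator that dampens chemokine receptor signals in germinal centers, had 12.44, 12.55 and 12.68 in USFKD 1d IR arrays and 15.42, 15.57 and 15.49 in sshRNA 1d IR arrays, 7.66-fold lower. Rgs16 was 4.66-fold lower. Cxcr4, the chemokine receptor of the dark zone, had 10.03, 10.58 and 10.26 in USFKD 1d IR arrays and 12.22, 11.67 and 12.29 in sshRNA 1d IR arrays. Bcl6, the transcriptional repressor that defines the germinal center program, differed by -0.15 and was not called. Of 11 RGS genes 5 were lower and 1 higher, together 54.5% of that list, and the exception lay among them on chromosome 1. Rgs2 had 9.90, 9.79 and 9.82 in USFKD 1d IR arrays and 8.27, 7.65 and 8.18 in sshRNA 1d IR arrays, 3.50-fold higher, although the next measured gene was Rgs13 and the next but one Rgs1 (2.01-fold lower).

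B cell transcription factor genes counted 2 higher and 3 lower of 23. These calls were 21.7% of the list, against 5.45% of all genes and 10.3% of genes above the dim limit. Nfatc1, a calcium-responsive factor, was 2.83-fold higher and Irf4, which promotes plasma cell development, 1.85-fold higher. Irf8, its relative in germinal center cells, was 2.47-fold lower, the octamer coactivator gene Pou2af1 1.99-fold lower and Ebf1 1.63-fold lower. In the NF-kB list 4 of 23 were higher and 2 lower, together 26.1%. The called genes named as NF-kB inhibitors, Nfkbia, Nfkbid and Nfkbiz, were on the higher side, and what their products do in these cells was not measured. Nfkbia had 10.12, 10.10 and 10.01 in USFKD 1d IR arrays and 8.85, 8.42 and 8.70 in sshRNA 1d IR arrays, 2.68-fold higher, Nfkbid was 2.75-fold, Nfkbiz 1.64-fold and the A20-binding protein gene Tnip1 1.89-fold higher, while Traf1 and Myd88 were 2.36-fold and 1.81-fold lower. Only 1 of this pair was called without sshRNA 1d IR replicate 2 or USFKD 1d IR replicate 3.

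Calls in other immune groups were counted in the same way. In the TNF family Tnfrsf13b, the TACI receptor, was 2.81-fold higher, and the ligand genes Tnfsf13b (BAFF) and Ltb were 2.85-fold and 2.08-fold lower. Among 15 costimulation and activation markers Cd83, Cd55 and Cd68 were 2.83-, 2.51- and 2.25-fold higher. Icosl, the ligand of the T cell costimulator ICOS, had 6.10, 6.54 and 6.40 in USFKD 1d IR arrays and 8.27, 8.45 and 8.31 in sshRNA 1d IR arrays, and the low-affinity IgE receptor gene Fcer2a was 2.75-fold lower. Interferon-stimulated genes had 2 of 37 higher and 5 lower. These calls were 18.9% of the list, against 5.45% of all genes and 10.3% of genes above the dim limit. The lower ones were led by Phf11b and Phf11a (3.10-fold and 3.09-fold lower) and the GTPase gene Gbp4 (2.45-fold lower). Endosomal nucleic acid sensing had 4 of 17 genes higher (23.5%) and none lower. Its exonuclease gene Pld4 was 4.02-fold higher, the Toll-like receptor chaperone gene Unc93b1 2.06-fold, Tlr9 1.67-fold and Pld3 1.51-fold, but Tlr9 and Pld3 were both lost without USFKD 1d IR replicate 1, which left 2 higher members. None of 30 measured cytokine receptor and JAK-STAT genes was called. The other 3 of the 33 listed were not analysed here. Among cytokine receptor genes without a cluster of their own was Il2rg, the common gamma chain gene, which the study reports as lower in USFKD cells.

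Lysosomal genes were called in 31.8% of cases, against 5.45% of all genes and 10.3% of genes above the dim limit. The median difference over the 44 measured members was 0.28, 4 were lower and 10 were higher. With Tpp1 and Dpp7 these included Atp6v0d1, a subunit of the proton pump, which had 12.40, 12.41 and 12.42 in USFKD 1d IR arrays and 10.96, 11.04 and 11.00 in sshRNA 1d IR arrays, 2.66-fold higher. The membrane protein gene Lamp1 was 2.32-fold higher, the macrophage lysosomal protein gene Cd68 2.25-fold and the protective protein gene Ctsa 2.17-fold. On the lower side stood Ctse, the invariant chain protease gene Ctss (2.18-fold lower), the pump subunit gene Atp6v1h and the hexosaminidase gene Hexa. Tfeb, which drives lysosomal genes, differed by 0.31, under the fold limit. The count of higher members stayed between 10 and 11 without any 1 array of the 1-day groups.

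**Figure D3:**
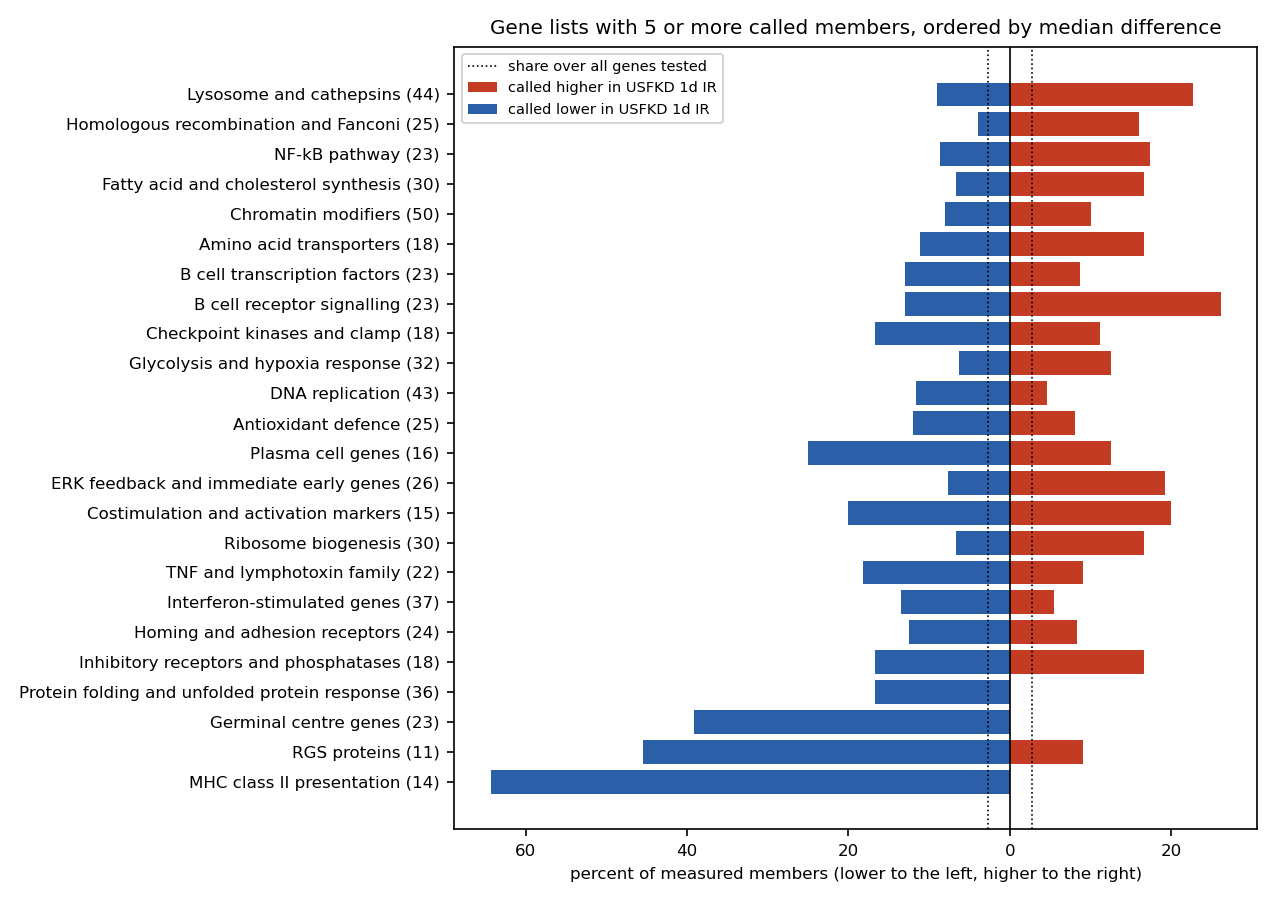
Percent of the measured members of each gene list called higher (red, to the right) or lower (blue, to the left) in USFKD 1d IR than in sshRNA 1d IR, for lists with 5 or more called members other than the study's quantitative PCR panel, ordered by their median difference with the number of measured members in brackets. Dotted lines mark the shares over all genes, 2.72% higher and 2.73% lower. Over genes above the dim limit the shares are 5.24% higher and 5.09% lower. MHC class II genes stand at the foot with 9 of 14 lower, and lysosomal genes at the head with 10 of 44 higher.

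Over 8 lists of DNA repair, damage signalling and cell death genes 13 genes were higher and 12 lower. These 25 are 15.4% of the 162 measured genes, against 5.45% of all genes, and 16.6% of the 151 above the dim limit, against 10.3% of all genes above it. In homologous recombination and the Fanconi pathway 4 of 25 were higher and 1 lower, with a median of 0.26. Xrcc3, a homologous recombination gene, had 9.12, 9.37 and 9.08 in USFKD 1d IR arrays and 7.69, 7.91 and 7.70 in sshRNA 1d IR arrays, 2.68-fold higher (1.42 ± 0.189, adjusted p = 0.000234 by limma). Brca1 had 9.63, 9.67 and 9.67 in USFKD 1d IR arrays and 8.79, 8.73 and 8.71 in sshRNA 1d IR arrays, 1.88-fold higher, and Fancm and Brip1 rose with it, while X-linked Fancb was 2.01-fold lower. End joining had the gap-filling polymerase genes Polm and Poll higher by 2.13-fold and 1.59-fold and Parp3 lower, of 14 genes. Excision and mismatch repair had 2 of 31 higher, Mlh3 (2.49-fold) and Msh6 (1.77-fold), and 1 lower. The lower count became 2 without sshRNA 1d IR replicate 3 or USFKD 1d IR replicate 1, both here and in homologous recombination, and here also without sshRNA 1d IR replicate 2. In break-site signalling Usp28 and Brcc3 were 2.13-fold and 2.08-fold lower of 16 genes, and among 18 checkpoint genes 2 were higher and 3 lower, with 1 higher when sshRNA 1d IR replicate 1 or USFKD 1d IR replicate 2 was left out. Known p53 targets had 2 of 25 higher and 2 lower in these p53-deficient cells. Mdm2 was 1.56-fold and Ccng1 1.78-fold higher, and without USFKD 1d IR replicate 2 or 3 neither was called. Only 1 of them was left without USFKD 1d IR replicate 1 or sshRNA 1d IR replicate 1 or 3, and the lower call of Plk3 was lost without sshRNA 1d IR replicate 1 or USFKD 1d IR replicate 2 or 3. Cdkn1a, the p53-induced cyclin kinase inhibitor, had 6.66, 7.56 and 7.32 in USFKD 1d IR arrays and 7.61, 7.73 and 7.71 in sshRNA 1d IR arrays, with an adjusted p of 0.394 in limma. Of 15 BCL2 family genes 1 was higher, and of 23 death receptor and caspase genes 2 were lower. Casp1, one of the lower ones, was lost when any single 1-day array was left out, and the lower count was then 1 except without sshRNA 1d IR replicate 1. Mcl1, an inhibitor of apoptosis, was 1.73-fold higher, and Ripk3, the necroptosis kinase, had 10.28, 10.48 and 10.55 in USFKD 1d IR arrays and 12.11, 12.34 and 12.20 in sshRNA 1d IR arrays.

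Proliferation genes had small median differences as groups, -0.09 for mitosis and 0.02 for replication. Of 39 mitosis genes only X-linked Kif4 was called (2.12-fold lower), and Mki67 differed by -0.42 with an adjusted p of 0.128 in limma. Of 43 replication genes 5 were lower and 2 higher, or 1 higher without USFKD 1d IR replicate 1. With all arrays the calls were 16.3% of this list, against 5.45% of all genes and 10.3% of genes above the dim limit. The helicase subunit gene Mcm3 stood apart from its complex, with 10.85, 11.34 and 11.13 in USFKD 1d IR arrays and 12.92, 13.58 and 13.31 in sshRNA 1d IR arrays, 4.47-fold lower, while Mcm2, Mcm4, Mcm5 and Mcm6 had differences between -0.52 and 0.24 and were not called. Cdkn1b, the p27 inhibitor of cyclin-dependent kinases, had 8.67, 8.73 and 8.81 in USFKD 1d IR arrays and 7.33, 6.91 and 7.22 in sshRNA 1d IR arrays, 2.99-fold higher. Myc differed by 0.49 with an adjusted p of 0.063 in limma, and none of 12 measured genes of its network was called, although 1 was called higher without sshRNA 1d IR replicate 3 or USFKD 1d IR replicate 3.

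Metabolic lists held a few strong members. Fatty acid and cholesterol synthesis had 5 of 30 higher and 2 lower. These calls were 23.3% of the list, against 5.45% of all genes and 10.3% of genes above the dim limit. The higher count fell to 3 without sshRNA 1d IR replicate 2 and to 2 without any other single 1-day array. The desaturase gene Scd1 had 16.89, 16.83 and 16.67 in USFKD 1d IR arrays and 15.27, 15.25 and 15.05 in sshRNA 1d IR arrays, 3.05-fold higher, and Hmgcs1, an early enzyme of cholesterol synthesis, was 2.44-fold higher. X-linked Acsl4, an acyl-CoA synthetase gene, was 2.52-fold lower. Among amino acid transporters Slc7a7 was 2.80-fold higher and Slc7a8 5.79-fold lower, at 5.26, 5.34 and 5.21 in USFKD 1d IR arrays and 8.10, 7.65 and 7.66 in sshRNA 1d IR arrays. Adm, a hypoxia-responsive peptide hormone gene, was 3.68-fold higher, and X-linked Pgk1, a glycolytic kinase gene, 2.06-fold lower. Protein folding genes were called in 16.7% of cases, against 10.3% of genes above the dim limit. Of 36 genes 6 were lower and none higher with a median of -0.18, led by Derl3, a component of endoplasmic reticulum degradation (2.95-fold lower). That count was fragile: it was 1 without USFKD 1d IR replicate 3, 2 without sshRNA 1d IR replicate 2 and 3 without USFKD 1d IR replicate 2. Higher members also appeared, 2 without USFKD 1d IR replicate 2 and 1 without USFKD 1d IR replicate 3. Hyou1 and Creld2 were among the lost, and in USFKD 1d IR replicate 1 Creld2 read 12.21, against 11.29 and 11.34 in the other USFKD arrays.

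Of the 15 genes that the study followed by quantitative PCR 11 had a cluster of their own, and all 11 were called. Nfkbia, Nfkbid, Cdkn1b, Blk, Blnk and Cd300a were higher, and Ctse, Maged1, Icosl, Btk and Icam2 were lower. Icam2, an adhesion ligand, had 5.85, 5.63 and 5.52 in USFKD 1d IR arrays and 6.38, 6.38 and 6.41 in sshRNA 1d IR arrays. The study chose the panel partly for altered expression between the lines before irradiation, in the same pair of lines, so its count is not independent evidence of direction. The other 4 genes of the panel were not analysed here.

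Called genes were searched for the E-box in RefSeq promoters of assembly GRCm38.p6, from 250 bases before to 50 after the gene start. The letters CACGTG, a palindrome that reads alike on both strands, stood in 8.09% of the 27025 genes with a promoter in the table and in 11.9% of the 8430 protein coding genes above the dim limit that had one. They stood in 64 of 520 higher genes (12.3%) and in 81 of 548 lower genes (14.8%). The longer form GTCACGTG, on either strand, stood in 4.91% of genes above the dim limit, in 6.73% of higher and in 5.84% of lower genes. Of the 30 genes with the largest changes 21 had a promoter, and only that of Dpp7 held CACGTG. The windows below are shown because they place the site in genes described here from the higher and the lower side. Each is 24 bases on the gene's strand, with the E-box in capitals.
Dpp7: ccagactatCACGTGatgctgccc
Atp6v0d1: tactgcggtCACGTGagacgcggt
Pes1: taggcagggCACGTGcgggaggaa
Ripk3: gtttcaaggCACGTGcacaggaaa
Btla: cttacctgaCACGTGctgggaatg
Derl3: aacaaccgcCACGTGctctaccgt

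The windows lie at chr2:25356391-25356414 (Dpp7, minus strand), chr8:105566053-105566076 (Atp6v0d1, minus strand), chr11:3963968-3963991 (Pes1, plus strand), chr14:55788904-55788927 (Ripk3, minus strand), chr16:45224332-45224355 (Btla, plus strand) and chr10:75893221-75893244 (Derl3, plus strand). In Atp6v0d1 the site starts 3 bases before the gene start, and in Dpp7 73 bases before it. Dpp7, Atp6v0d1 and the ribosome biogenesis gene Pes1 were higher in USFKD 1d IR, by 5.02-, 2.66- and 2.20-fold, and Ripk3, Btla and Derl3 were lower by 3.43-, 3.41- and 2.95-fold, so the same letters stood in genes of both directions. A match is a description of the sequence and not of binding, which was not measured here.

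The calls were unevenly spread over chromosomes. On chromosome 11, 214 of 1271 genes above the dim limit were higher (16.8%) and 11 lower (0.865%), and on chromosome 12, 93 of 580 were higher (16.0%) and 7 lower (1.21%), against 5.24% higher and 5.09% lower over all genes above that limit. The median log2 differences were 0.24 on both. Chromosome 13 followed, with 50 of 586 higher (8.53%), 18 lower (3.07%) and a median of 0.17. Chromosomes 11 and 12 held 11.9% of the genes, 37.8% of the higher calls and 2.28% of the lower calls. Lower calls gathered on chromosome 9 (86 of 749, 11.5%), chromosome 16 (51 of 505, 10.1%), chromosome 10 (67 of 714, 9.38%) and chromosome X (163 of 878, 18.6%). Chromosome X held 20.6% of all lower calls on 5.66% of the genes. Of the genes described above Cd300a, Myo1g, Eno3, Grb2, Cd68, Tnip1, Brca1, Polm and Pes1 are on chromosome 11, Nfkbia, Xrcc3, Pld4 and Mlh3 on chromosome 12, Zc3h12d, Vpreb3, Icosl and Derl3 on chromosome 10, and Btk, Cybb, Maged1, Fancb, Brcc3, Kif4, Acsl4 and Pgk1 on chromosome X. Without irradiation the medians were 0.16 on chromosome 11, 0.17 on chromosome 12 and -0.22 on chromosome 9, so the same chromosomes leaned the same way. The part that chromosome position plays in the single genes was not tested. Over all named genes, dim ones included, the medians of chromosomes 11 and 12 were smaller, 0.06 and 0.04.

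**Figure D4:**
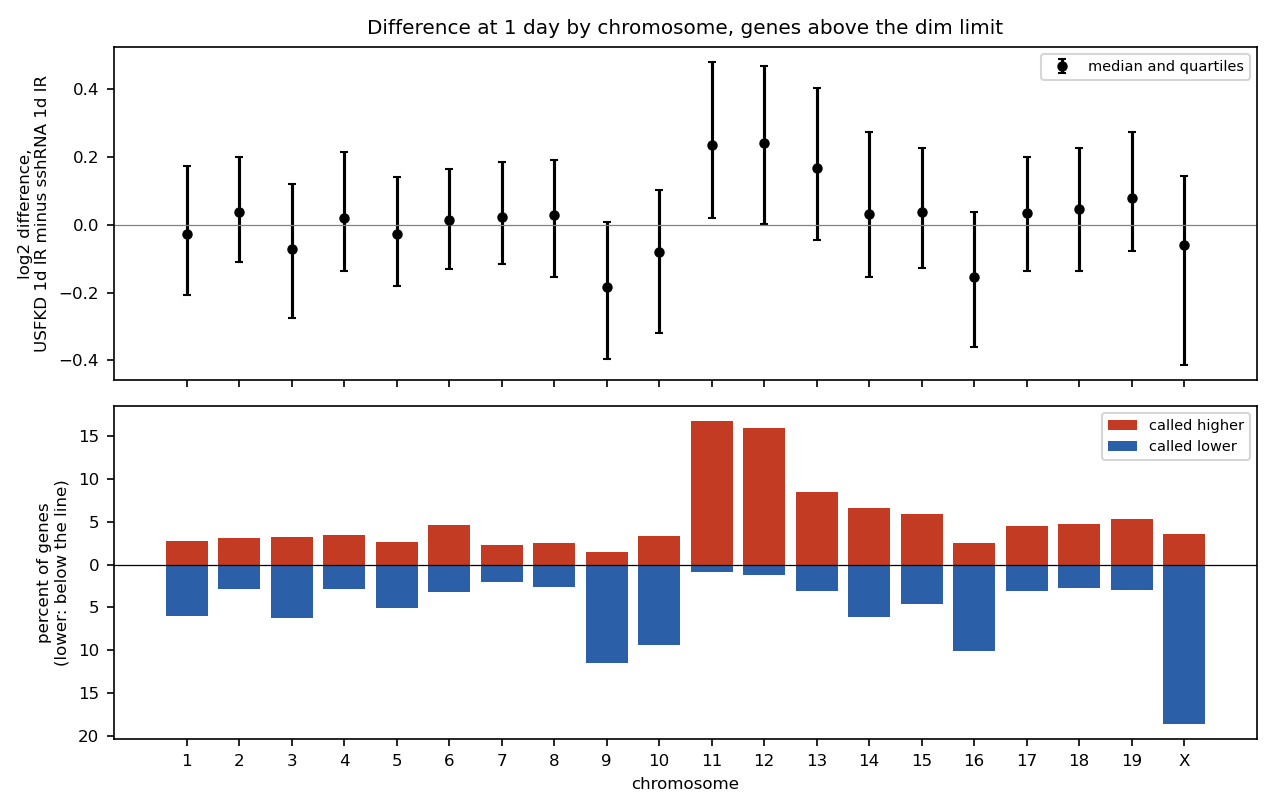
Upper panel, median (points) and quartiles (bars) of the log2 difference, USFKD 1d IR minus sshRNA 1d IR, over genes above the dim limit on each chromosome. Lower panel, percent of these genes called higher (red, upward) and lower (blue, downward). Chromosomes 11 and 12 stand out with 16.8% and 16.0% higher, and chromosome X with 18.6% lower.

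Some neighbours were called together. The longest run of called genes held 15 lower genes on chromosome 5, from Gm5152 to 4933402N22Rik, with differences between -1.20 and -0.72, followed by 6 lower Xlr genes on chromosome X. Both are multicopy families whose probes may share signal. The class II genes H2-Ab1, H2-Aa, H2-Eb1, H2-Eb2 and H2-Ea formed a run of 5 on chromosome 17.

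Most differences at 1 day were also found between the lines without irradiation. Of the 818 higher genes 454 were called higher without irradiation, which is 55.5% of the 1-day calls and 64.1% of the 708 untreated calls, and of the 821 lower genes 672 were called lower, 81.9% of the 1-day calls and 49.5% of the 1357 untreated calls. No gene was called in opposite directions. Untreated cells had 2.35% of genes called higher and 4.51% lower. Over the 15543 genes above the dim limit the 1-day and untreated differences correlated with a Pearson r of 0.819 and a Spearman rho of 0.71, a description across genes, which are not independent replicates. These comparisons share no arrays but come from the same pair of lines and share the variance estimate.

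**Figure D5:**
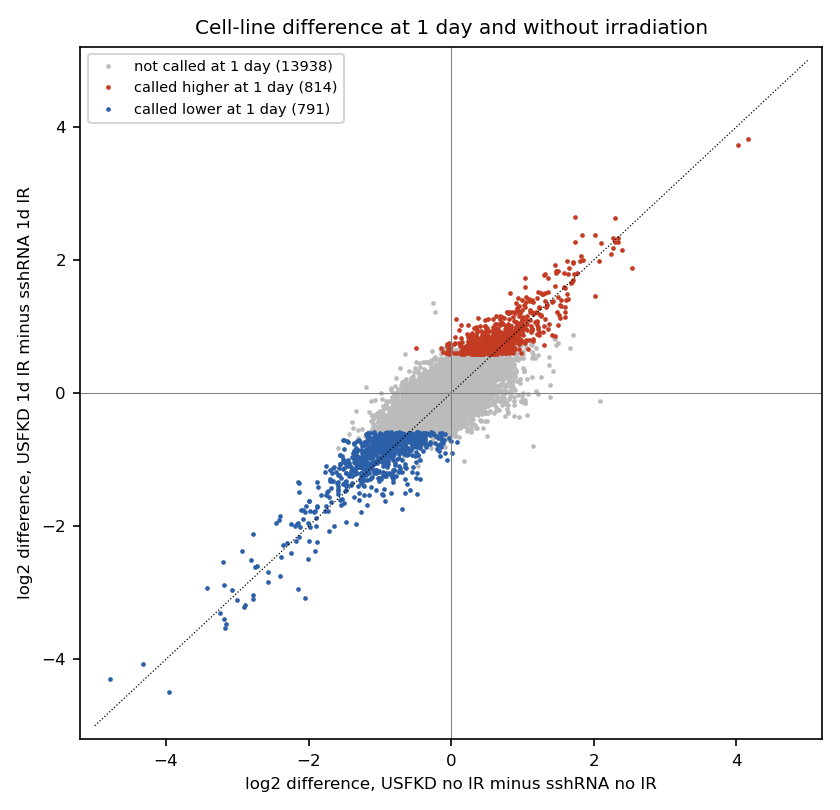
Log2 difference USFKD 1d IR minus sshRNA 1d IR (vertical) against USFKD no IR minus sshRNA no IR (horizontal) for the 15543 genes above the dim limit, with the 814 called higher at 1 day in red, the 791 called lower in blue and the rest in grey. The dotted line marks equal differences, and the called genes follow it with none called in the opposite direction without irradiation.

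The difference between the 1-day and the untreated contrast was tested directly, and no transcript cluster passed (0%, smallest adjusted p 0.623 in limma), with 4286 clusters at an unadjusted p under 0.05. Genes called at 1 day and not without irradiation are therefore described without a claim that they differ. Among these, Cd69, an early activation marker, had 8.33, 9.10 and 8.95 in USFKD 1d IR arrays and 10.81, 9.66 and 10.50 in sshRNA 1d IR arrays, a difference of -1.53 ± 0.295, against -0.96 without irradiation. Ttyh2, a chloride channel family gene, differed by 1.16 at 1 day and 0.63 without irradiation, and Txnip, a thioredoxin-binding protein gene, by 1.16 and 0.68. The small noncoding RNA gene Gm22270 differed by -1.74 at 1 day and -0.69 without irradiation. Their adjusted p for the change of the difference ran from 0.631 to 0.902 in limma. Txnip was lost when some single 1-day arrays were left out, with adjusted p up to 0.101 without USFKD 1d IR replicate 3, and Cd69 in a fit to the 6 arrays of 1 day alone (0.0707).

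The same counts were made against 7 days. Of the higher genes 497 were also higher at 7 days, 60.8% of the 1-day calls and 43.1% of the 1154 7-day calls, and of the lower genes 495 were also lower, 60.3% of the 1-day calls and 32.7% of the 1515 7-day calls. At 7 days 3.83% of genes were called higher and 5.03% lower. Here the difference between the contrasts passed for 125 genes (0.415%), 86 with a greater and 39 with a smaller USFKD minus sshRNA value at 7 days. Usf2 itself was among them by its brightest cluster, TC0700002782.mm.1, at -1.95 at 1 day and -3.39 at 7 days. Its further cluster, TC0700002784.mm.1, was not flagged for such a change. H2-Eb1 was -1.35 at 1 day and -2.82 at 7 days, Bank1 1.92 and 3.35, and Fcgr2b 1.35 and 2.45, so these were further apart at 7 days. Derl3 (-1.56 at 1 day and -0.12 at 7 days), Cubn, an endocytic receptor gene (-2.50 and -0.69), Adm (1.88 and 0.24) and Pld4 (2.01 and 0.49) were closer together at 7 days. Endou differed by -3.04 at 1 day and -2.05 at 7 days, and was called at both. The count of 125 rests on few arrays, as the number of clusters behind it changed when single arrays were left out.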

How the data were processed

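Total RNA of the 18 samples was amplified with the Affymetrix WT Plus kit and hybridised to Mouse Transcriptome 1.0 arrays. The values are log2 intensities that the authors deposited after robust multi-array averaging (RMA: background adjustment, quantile normalization and summary by cluster). Of the software, the submitters' processing notes give only Expression Console and RMA, with no version. In 1339 of 72688 rows a value exceeds 16, a scanner's usual log2 range, and how such values arose is not given in the sources used here. Array number limits the precision.

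A model of 6 group means was fitted to all rows with limma 3.58.1 in R 4.3.3, with Benjamini-Hochberg adjustment over all 72688 rows and the study's thresholds (adjusted p under 0.05, fold over 1.5). The study used a 3-way ANOVA in Partek, and the unmoderated linear model stands for it among the alternatives. Clusters with 1 symbol (30638) were matched to RefSeq GRCm38.p6 by Entrez ID (22596), symbol (7710) or synonym (330). On simulated data for this comparison (72688 rows) the fit recovered 100% of log2 changes of -2, 96% of 2, 82% of -1 and 78% of 1. It made 8 false calls. The simulated noise was independent between rows, so deviations that rows of an array share were not covered.

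Named genes were Usf1 and Usf2, the 15 largest called changes each way without overlap between arrays, the study's quantitative PCR panel, up to 4 called members of each of 56 gene lists, up to 5 each way for the changes of the difference, and 2 unnamed clusters each way. Other list members are given to describe a list. Members and lists were chosen with earlier results of these data known. Alternatives covered normalization, centring, dim filter, array weights, variance prior, samples, rows, thresholds, the replicate block and leaving out each array.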

Additional observations from a re-analysis of the deposited data

Results flagged for a closer look

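The following named genes and clusters had a USFKD minus sshRNA difference that changed between 1 and 7 days by the test of that change in limma. Values are the 7-day minus the 1-day log2 difference with its adjusted p. The change was negative for the brightest Usf2 cluster (-1.43, adjusted p = 0.0171), H2-Eb1 (-1.47, 0.0468), Ltb (-0.86, 0.0457), Adm (-1.64, 0.0398), Pld4 (-1.51, 0.00326) and Gm23379 (-1.39, 0.0285). It was positive for Maged1 (0.97, 0.0234), Endou (0.99, 0.00326), Slc7a8 (1.28, 0.00337), Cubn (1.81, 0.000286), Derl3 (1.44, 0.0195), Tnfsf13b (1.13, 0.0168) and Gm11295 (1.41, 0.0457), all of which were lower in USFKD 1d IR. It was also positive for Bank1 (1.42, 0.00718), Fcgr2b (1.10, 0.00873) and Gm4875 (1.36, 0.00788), which were higher in USFKD 1d IR. The unnamed clusters TC0600001386.mm.1 and TC1500001443.mm.1 changed by 1.18 (0.0244) and 2.72 (0.00326). With 3 arrays a group, no test for single distant arrays was made.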

How the results depend on the processing

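The count of 2244 called clusters at 1 day lay between 1665 and 2665 under alternatives that kept the thresholds. It was 3808 (1903 higher, 1905 lower) with no fold limit and 684 (235 higher, 449 lower) with a fold over 2. Leaving out 1 array at a time gave 1936 to 2301 clusters, 845 to 1109 higher and 1030 to 1295 lower. No change of the difference between 1 day and no irradiation passed under any alternative or without any array (0 in limma). The change from 1 to 7 days was less stable. Its 170 clusters (115 higher, 55 lower) ran from 54 without USFKD 7d IR replicate 2 to 528 without USFKD 7d IR replicate 1, with 46 to 238 higher and 8 to 290 lower, and from 65 to 96 without any 1-day array. Lower ones were 36 with repeated quantile normalization. Replicate numbers are shared between groups. Same-numbered arrays of the 1-day groups had deviations correlated at 0.321, 0.289 and 0.005, and different-numbered arrays at -0.414 to 0.226. So few correlations cannot decide whether the numbers pair the samples, and the main fit did not treat them as pairs. With the replicate number as a block 2193 clusters were called at 1 day and 107 for the change to 7 days, 26 of them lower. No named gene or count reversed, and 27 named genes lost their call under at least 1 setting. The cause was not tested. Centring moved the 1-day differences by -0.04. Chromosome medians were less stable under some alternatives. They were counted as moved in 2 comparisons and as the same in 118 when 1 array was left out. Under the other alternatives these counts were 24 and 16.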
